A study of Mus musculus with 8 samples.

Results

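The genes described here encode the subunits of the proteasome and of the CCT chaperonin, also called TRiC. They were taken by symbol: Psma, Psmb, Psmc or Psmd followed by a digit, or Tcp1, Cct2, Cct3, Cct4, Cct5, Cct6a, Cct7 and Cct8, where the gene is protein-coding. This gave 48 members of the 52550 genes counted, 40 by prefix and 8 of CCT. Levels are in CPM, the read count of a gene scaled by the library's total of reads on genes, and 46 members had at least 1 CPM in each of the 4 input libraries and were tested among 10754 genes in all. Psmb8 and Psmb11 stayed under that filter. Cct6a was kept because RefSeq classes it as protein-coding, although GENCODE M21 does not. Psmc3ip, a cofactor of meiotic recombination and not a proteasome subunit, was taken in by its prefix and is kept apart from the groups of subunits.

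The proteasome degrades proteins tagged with ubiquitin. Its core particle stacks outer rings of Psma subunits, which gate the entry, on inner rings of Psmb subunits, some of which carry the proteolytic sites, and its regulatory particle holds Psmc ATPases that unfold the substrate and Psmd subunits that bind and remove ubiquitin. CCT is a ring-shaped chaperonin of related subunits that folds actin, tubulin and other newly made proteins.

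The study asked which transcripts are bound by eIF4A2, an RNA helicase of translation initiation, by RNA immunoprecipitation (RIP) with an anti-Flag antibody and sequencing of 3′ ends. All libraries came from mouse embryonic stem cells (ESCs) with a knockout of Eif4a2, made in a line with a Rex1-GFPd2 reporter and a Cas9 transgene, and grown in ES-DMEM/2i, a medium with serum, LIF and the 2i inhibitors CHIR99021 (of Gsk3) and PD0325901 (of Mek). EV cells carried an empty vector and FL cells the Flag-tagged full-length protein, eIF4A2 FL, put back from a transposon vector; the labels give the gene and the tag but no isoform. Input RNA and RIP RNA of both made 4 groups of 2 libraries, named here EV input, FL input, EV RIP and FL RIP. The FL libraries were from 2 clones. Nothing states whether the EV libraries came from separate clones or cultures, so p-values may reflect technical spread only. A field of FL RIP replicate 2 reads Eif4a3, while its title reads Eif4a2. The library number of EV input replicate 1 stands apart from those of all other libraries, and no label says why. RIP of the isoform eIF4A2 PTC is not analysed here.

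Reads on genes came to 7269765 and 3204369 in EV input, 4620862 and 6225787 in FL input, 2044853 and 3345151 in EV RIP and 11206420 and 9976801 in FL RIP. They made up 19.9% and 29.9% of the reads of the EV RIP libraries, against 68.2% and 68.1% in FL RIP. In EV input they made up 40.9% and 30.0% and in FL input 41.2% and 46.4%. EV RIP replicate 2 was thus near EV input replicate 2 by this share. The EV RIP pair stood apart in its spread, with a biological coefficient of variation of 171% against 23.1% to 30.1% in the other groups. Among the 46 tested members, 26 differed by less than 2-fold between the EV RIP replicates (56.5%, against 44.95% of all genes tested), while 97.8% did between the FL RIP replicates (against 94.0%). The spread of EV RIP was thus not particular to the members.

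Tags on Eif4a2, the gene knocked out, gave 53.8 and 94.2 CPM in EV input, 86.8 and 69.1 in FL input, 56.7 and 126 in EV RIP and 76.7 and 47.4 in FL RIP. They did not separate the genotypes, and since the deleted stretch and the vector's 3′ end were not compared with the tags, they check no label. Of 8 ESC markers 8 passed the filter, with sums of 1965 to 2639 CPM in the inputs and Tfcp2l1 the most abundant, although Pou5f1 stood at 5.78 to 19.7 CPM. In the inputs 5 fibroblast markers summed to 0.825 to 6.87 CPM, from Thy1 and Col1a1, with Col1a2, Col3a1 and Postn at 0. The 3 primitive endoderm markers summed to at most 1.08 CPM there, with Sox17 at 0, and the 3 mesoderm and neural markers to at most 8.44 CPM, mostly Sox1.

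In the inputs the members were abundant transcripts, with a median of 267 CPM against 22.6 CPM over all genes tested. Sequencing of 3′ ends is designed to give about 1 tag per transcript, so CPM of different genes are compared here without division by length. The 48 members together took 22793 and 21494 CPM in EV input, 20511 and 26893 in FL input, 14882 and 15621 in EV RIP and 22287 and 21064 in FL RIP. Both EV RIP libraries lay below the other 6. The 8 CCT genes summed to 8973 and 7364 CPM in EV input, 7804 and 10162 in FL input, 2893 and 4442 in EV RIP and 9259 and 8853 in FL RIP. The 7 genes of the inner Psmb ring gave 2469.7 and 2645, 2439 and 2946, 904 and 1429 and 2101 and 1758 CPM in the same order. CCT and the inner ring were thus lowest in the EV RIP libraries by CPM, and the inner ring in FL RIP also lay below all inputs. The 7 outer ring genes were lowest in FL RIP, at 1493 and 1604 CPM against 1873 and 2121 CPM in EV RIP, and in the 6 ATPases the groups overlapped, with 2926 and 3038 CPM in FL RIP and 3097 and 2551 CPM in EV RIP.

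**Figure D1:**
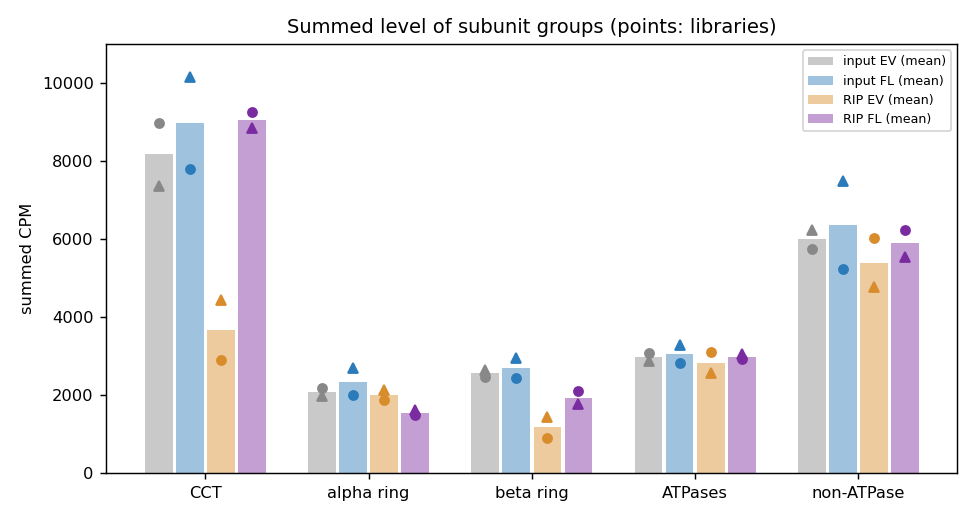
Summed CPM (vertical axis, linear) of groups of subunits in the 4 groups of libraries, with bars for means and points for the single libraries. CCT lay at 2893 and 4442 CPM in the EV RIP libraries and at 7364 CPM or more in the other 6.

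CPM within each complex were far from equal. Whether tags were recovered alike from different genes was not tested, so unequal CPM need not be unequal transcript numbers. In the inputs the actin gene Actg1 read 0.413 to 0.964 CPM, against 3713 to 6341 CPM for the actin gene Actb. Among the 14 constitutive core subunits mean input levels ran from 28.0 CPM for Psma3 to 1066 CPM for Psma2, both of the outer ring. The last 300 bases of their transcripts matched 146 and 159 other loci at 90% identity or more. Neither had an exact copy of 50 bases there, and the effect of the near copies on the counts was not tested. Among the 17 regulatory subunits they ran from 85.7 CPM for the ATPase Psmc2 to 1387 CPM for the ubiquitin receptor Psmd4. Within CCT, where each subunit has a place in the ring, Cct7 reached 5456 CPM, 63.6% of the sum, while the other 7 lay between 255 CPM for Cct2 and 1135 CPM for Cct8. Some of these levels are uncertain because only uniquely aligned reads were counted. In the last 300 bases of the transcript, the share of windows of 50 bases with an exact copy elsewhere in the genome was 79.3% for Psmb5, 62.2% for Psma4, 60.2% for Psma5 and for Psmb3, 56.6% for Psmb7 and 34.3% for Psmd2. Exons on the opposite strand covered all of that stretch in Psmb7 (Nek6) and Psmc3ip (Mlx) and part of it in Cct8 (Usp16) and Tcp1 (Acat3), and Psmd1 shared 228 bases with Gm21972 on its own strand. The strand setting of the counting is not given in the sources used here, so how reads on these stretches were assigned is not known. Reads set aside as ambiguous between genes made up 0.366% to 0.759% of a library.

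The inputs show whether subunit mRNAs differed in level once eIF4A2 FL was put back. None of the 46 members passed the test between FL input and EV input (edgeR, all 8 libraries in the fit, Benjamini-Hochberg adjusted p under 0.05), and 0% of all genes tested did. Unadjusted p under 0.05 by edgeR were found for 1 member, which was lower, and for 0 higher members (0.549% and 0.697% of all genes tested). DESeq2 and limma voom also called 0 members. DESeq2 gave an adjusted p for 45 of the 46 members, and called 0.128% higher and 0.0296% lower of all genes with an adjusted p. Limma voom called 0% of all genes tested. At an unadjusted p under 0.05, 2 members by DESeq2 and 1 by limma voom were lower (1.51% and 2.89% of all genes tested). By both methods 0 members were higher at that level (2.11% and 3.74% of all genes tested). The members' median log2 fold change was 0.08, beside 0.01 over all genes tested, and moved from -0.05 without EV input replicate 2 to 0.24 without EV input replicate 1. Psmb10, the inducible form of the trypsin-like subunit, was the member under an unadjusted p of 0.05. Psmb10 (ENSMUSG00000031897, chromosome 8, 105935735 to 105938444, minus strand, mm10) read 169 and 244 CPM in EV input, 57.6 and 111 in FL input, 47.9 and 57.4 in EV RIP and 104 and 137 in FL RIP. Its inputs did not overlap, with FL input low, at a log2 fold change of -1.28 ± 0.42 (SE) (edgeR, adjusted p = 1.00). Psma2 was high in FL input replicate 2 alone, as was Psmd13, a lid subunit, at 626 and 1515 CPM in FL input and 729.6 and 738 CPM in EV input.

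Recovery beyond abundance was read from FL RIP against FL input. Members were recovered somewhat below the average transcript, with a median log2 fold change of -0.41 against 0.02 over all genes tested. It moved to -0.24 against 0.06 without FL input replicate 2. Of the 46 members 37 lay below 0 (80.4%, against 49.1% of all genes tested). With all 8 libraries edgeR called 0 members higher (0% of all genes tested) and 0 lower (0.0558%), with 0 and 7 at an unadjusted p under 0.05 (3.08% and 5.88% of all genes tested). The spread of EV RIP is part of that fit. Lower members came to 8 without EV RIP replicate 1 (7.86% of all genes tested) and to 5 without EV RIP replicate 2 (7.23%). With the 4 compared libraries alone, edgeR called 0 members higher and 7 lower, where 8.44% and 8.46% of all genes tested were called. On 8 libraries DESeq2 called 6 members lower (4% of all genes tested) and limma voom 11 (9.65%).

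The scaling between libraries set the zero point. In the fit of 4 libraries the median over all genes tested moved from 0.02 with TMM factors, which assume that most genes do not differ, to 0.32 by library size alone, and that of the members from -0.42 to -0.10. Scaling moves all genes nearly alike, so the members' median lying below that of all genes under both scalings is no separate support. By library size alone 26 of the 46 members were below 0 (56.5%, against 34.2% of all genes tested). By that scaling edgeR called 1 higher (Psmd12) and 2 lower (Psmb7 and Psma2), where 18% and 5.27% of all genes tested were called. The count of 7 lower members was 3 without FL RIP replicate 1 (4.80% of all genes tested), 2 without FL RIP replicate 2 (4.23%), 10 without FL input replicate 1 (10.3%) and 7 without FL input replicate 2 (8.19%).

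**Figure D2:**
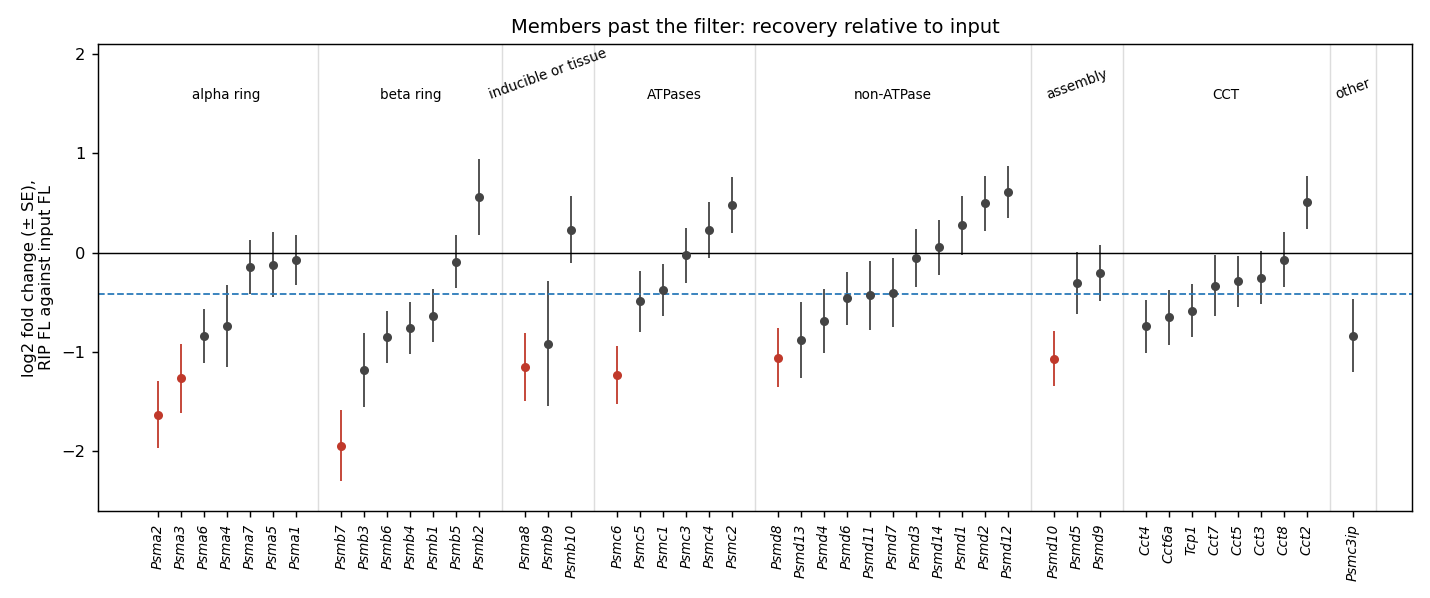
log2 fold change (with SE) of FL RIP against FL input for the 46 members past the filter, by group of subunits, from edgeR on these 4 libraries with TMM scaling; red points passed an adjusted p of 0.05 and the dashed line is the members' median. The 7 red points lie below 0, and library size alone moves the median to -0.10.

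The outer ring held 2 of the 7 lower members. Psma2 (ENSMUSG00000015671, chromosome 13, 14613240 to 14674236, plus strand, mm10) read 939.6 and 735 CPM in EV input, 875 and 1716 in FL input, 152 and 499.8 in EV RIP and 494 and 529 in FL RIP. Both RIP groups of Psma2 lay below all its inputs. Its FL RIP libraries lay below its inputs, with a log2 fold change of -1.63 ± 0.34 (SE) (edgeR on 4 libraries, adjusted p = 0.0135, 8.97e-05 to 1.00 over the alternatives, 0.0542 without FL RIP replicate 1). Psma3 (ENSMUSG00000060073, chromosome 12, 70974621 to 70996347, plus strand, mm10) read 31.4 and 28.4 CPM in EV input, 24.5 and 27.8 in FL input, 206 and 36.2 in EV RIP and 17.1 and 9.82 in FL RIP. FL RIP was low and a single EV RIP library was far above all others, and against input the log2 fold change was -1.26 ± 0.35 (SE) (edgeR on 4 libraries, adjusted p = 0.0351, 0.0202 to 1.00 over the alternatives, 0.217 without FL RIP replicate 2). Psma1, at the other end of the ring with -0.08 ± 0.25 (SE), read 141 and 129 CPM in EV input, 124 and 132 in FL input, 0.489 and 111 in EV RIP and 153 and 148 in FL RIP. All its libraries were alike but EV RIP replicate 1, which held almost no read of it.

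In the inner ring Psmb7 (ENSMUSG00000026750, chromosome 2, 38588036 to 38644087, minus strand, mm10), the trypsin-like subunit, read 56.4 and 103 CPM in EV input, 99.5 and 98.3 in FL input, 0 and 13.5 in EV RIP and 43.9 and 20.1 in FL RIP. Both RIP groups were low, and EV RIP held the lowest values. FL RIP lay below all inputs, with a log2 fold change of -1.94 ± 0.36 (SE) against FL input (edgeR on 4 libraries, adjusted p = 0.00896, 0.000572 to 1.00 over the alternatives). It passed without each of the 4 libraries in turn and by library size alone, but not by edgeR or DESeq2 on 8 libraries, and its counts are uncertain because of Nek6 and of the copies of its 3′ end. Psmb6, the caspase-like subunit and the most abundant of the ring, read 854 and 1114 CPM in EV input, 701 and 759 in FL input, 342 and 401 in EV RIP and 527 and 475 in FL RIP. It was lower in both RIP groups than in the inputs, and against FL input it stood at -0.85 ± 0.26 (SE) (edgeR on 4 libraries, adjusted p = 0.0521), while DESeq2 and limma voom on 8 libraries called it lower (adjusted p 0.000779 and 0.0261), as did edgeR on the 4 libraries without FL input replicate 1 (adjusted p 0.0479, 0.000779 to 1.00 over the alternatives). Psmb2, the least abundant, had the ring's highest value at 0.56 ± 0.38 (SE), with 36.5 and 38.1 CPM in EV input, 61.5 and 35.0 in FL input, 0 and 20.03 in EV RIP and 118 and 60.5 in FL RIP. Its FL RIP and FL input libraries overlapped, and it was called higher on 4 libraries by edgeR only without FL input replicate 1 (adjusted p 0.0409, 0.0409 to 1.00 over the alternatives).

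Among the ATPases Psmc6 read 302 and 203 CPM in EV input, 313 and 354 in FL input, 206 and 246 in EV RIP and 216 and 137 in FL RIP. FL RIP lay below FL input without overlap, at -1.23 ± 0.29 (SE) (edgeR on 4 libraries, adjusted p = 0.0216, 0.00585 to 1.00 over the alternatives, 0.158 without FL RIP replicate 2). Psmc2, the least abundant ATPase, had the highest log2 fold change of the group, 0.48 ± 0.28 (SE), which did not pass, with 101 and 81.8 CPM in EV input, 89.8 and 70.4 in FL input, 158 and 132 in EV RIP and 154 and 124 in FL RIP. Both RIP groups lay above the inputs. Psmc5, the most abundant, read 1172 and 1463 CPM in EV input, 1029.9 and 1619 in FL input, 1325 and 679 in EV RIP and 1016 and 1294 in FL RIP, and all groups overlapped.

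Of the 11 non-ATPase subunits of the regulatory particle, Psmd8 of the lid read 994 and 1335 CPM in EV input, 853 and 1260.1 in FL input, 412 and 488 in EV RIP and 714 and 537 in FL RIP. Both RIP groups were low, and against FL input the log2 fold change was -1.06 ± 0.30 (SE) (edgeR on 4 libraries, adjusted p = 0.0381). Psmd12, another lid subunit, had the highest value of all 46 members at 0.61 ± 0.26 (SE), not past the threshold with TMM (edgeR on 4 libraries, adjusted p = 0.132) but past it by library size alone, at 0.92 (adjusted p = 0.0394, 0.0394 to 1.00 over the alternatives), and read 185 and 203 CPM in EV input, 149.5 and 161 in FL input, 189 and 326 in EV RIP and 321 and 265 in FL RIP. FL RIP lay above FL input. Psmd4, the most abundant, read 1165 and 1313 CPM in EV input, 1069 and 2004 in FL input, 929 and 754 in EV RIP and 1181 and 1159.9 in FL RIP, and Psmd14, the deubiquitinase and least abundant of these subunits, 100.3 and 88.9 CPM in EV input, 98.5 and 90.6 in FL input, 55.3 and 129 in EV RIP and 142 and 102 in FL RIP. EV RIP of Psmd4 lay below all other libraries, whereas in Psmd14 its replicates lay on either side of the inputs. The call of Psmd8 was lost without FL RIP replicate 1, FL RIP replicate 2 and FL input replicate 2, with adjusted p of 0.104, 0.232 and 0.100 (0.00547 to 1.00 over the alternatives).

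The assembly chaperone Psmd10 read 38.2 and 48.4 CPM in EV input, 56.7 and 81.3 in FL input, 7.34 and 73.2 in EV RIP and 41.1 and 40.0 in FL RIP. Its FL RIP libraries lay below FL input, at -1.07 ± 0.27 (SE) (edgeR on 4 libraries, adjusted p = 0.0282, 0.00479 to 1.00 over the alternatives). Psma8, the testis form of an outer ring subunit, read 15.3 and 13.7 CPM in EV input, 22.1 and 17.0 in FL input, 14.2 and 55.3 in EV RIP and 12.05 and 9.82 in FL RIP, low in FL RIP at -1.15 ± 0.34 (SE) (edgeR on 4 libraries, adjusted p = 0.0476, 0.0263 to 1.00 over the alternatives). Both calls were lost without FL RIP replicate 1 (adjusted p 0.122 and 0.133 by edgeR) and without FL RIP replicate 2 (0.114 and 0.214), that of Psmd10 also without FL input replicate 2 (0.0715) and that of Psma8 without FL input replicate 1 (0.137). Psmd9, the least abundant of the assembly chaperones, read 46.5 and 39.0 CPM in EV input, 30.5 and 28.8 in FL input, 12.7 and 0 in EV RIP and 34.5 and 29.2 in FL RIP. Its FL RIP libraries were near its FL inputs, at -0.20 ± 0.28 (SE).

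None of the 8 CCT genes passed against FL input in the edgeR fit of 4 libraries. That fit called 8.44% of all genes tested higher and 8.46% lower. The log2 fold changes of the CCT genes ran from -0.74 ± 0.27 (SE) for Cct4 to 0.51 ± 0.26 (SE) for Cct2, with a median of -0.31. Unadjusted p under 0.05 were found for Cct4 and Cct6a in that fit (16.7% of all genes tested were lower at that level). On 8 libraries DESeq2 called Cct4 lower (4% of all genes tested) and limma voom called 0 of the 8 (8.90% higher and 9.65% lower). Cct4, Cct6a and Tcp1 had an unadjusted p under 0.05 by limma voom (16.6% of all genes tested were lower at that level). Across the 46 members the mean log2(CPM + 1) of FL input and of FL RIP had a Spearman correlation of 0.952, against 0.917 across all genes tested; genes are not independent replicates. Member transcripts were short, with a median of 1614 bases against 2981 bases for 10085 protein-coding genes tested. Transcript length and the log2 fold change of FL RIP against FL input had a Spearman correlation of 0.113 across members and of 0.314 across those protein-coding genes.

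Recovery over the antibody background was read from FL RIP against EV RIP. Cct7, Cct5, Psma5 and Psmb9 were higher with the tagged protein, and Psma3, Psma7 and Psmd7 were lower. This made 4 of 46 members higher and 3 lower by edgeR on 8 libraries, where 24.8% and 5.46% of all genes tested were called. The members' median log2 fold change was 0.20 against 0.64 over all genes tested, or 0.20 against 0.61 with genes at 0 in both EV RIP libraries set to the bound that 3 counts give. It moved to 0.09 without EV RIP replicate 1, 0.42 without FL RIP replicate 2 and 0.78 without EV RIP replicate 2, against 0.67, 0.78 and 3.07 over all genes tested. Abundance differed as well: 18.2% of all genes tested had no count in either EV RIP library, against 1 of the 46 members, and its part in the difference of the medians was not tested. FL RIP is shared with the comparison against input and EV RIP with the difference between cell lines, so these comparisons are not independent.

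Cct7 (ENSMUSG00000030007, chromosome 6, 85451514 to 85468475, plus strand, mm10) read 5920.4 and 4624 CPM in EV input, 4682 and 6598 in FL input, 1413 and 2183 in EV RIP and 5424 and 5596 in FL RIP. The EV RIP pair was low and overlapped no other group. Its log2 fold change over EV RIP was 1.34 ± 0.32 (SE) (edgeR, adjusted p = 0.0208, 0.000196 to 0.342 over the alternatives), and the call was lost without EV RIP replicate 1 (adjusted p 0.0524), FL RIP replicate 1 (0.0653) and FL RIP replicate 2 (0.0727). Cct5 (ENSMUSG00000022234, chromosome 15, 31590800 to 31601804, minus strand, mm10) read 379 and 273 CPM in EV input, 386 and 443 in FL input, 165 and 193 in EV RIP and 432 and 406 in FL RIP. EV RIP was below all other libraries again, with 0.95 ± 0.29 (SE) (edgeR, adjusted p = 0.0498, 0.00406 to 0.536 over the alternatives). That call was lost without either FL input (adjusted p 0.0868 and 0.0867 by edgeR), either FL RIP (0.144 and 0.123) and EV RIP replicate 1 (0.0696), and also with no filter (0.0647).

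All 8 CCT genes had a log2 fold change above 0 over EV RIP by edgeR on 8 or 4 libraries, by library size alone, by DESeq2 and by limma voom, as did 63.2%, 64.0%, 68.8%, 63.2% and 74.7% of all genes tested. Their median was 0.76 beside 0.64 over all genes tested by edgeR on 8 libraries. Tcp1 turned to -0.41 without EV RIP replicate 1 and Cct6a to -0.07 without FL RIP replicate 1. The 6 besides Cct7 and Cct5 did not pass by edgeR on 8 libraries with TMM. Cct8 read 1099 and 1022 CPM in EV input, 1084 and 1337 in FL input, 534 and 762 in EV RIP and 1581 and 1268 in FL RIP, at 0.86 ± 0.27 (SE) over EV RIP (edgeR, adjusted p = 0.0534). Cct3 read 372 and 287 CPM in EV input, 359 and 399 in FL input, 178 and 232 in EV RIP and 438 and 351 in FL RIP. In both genes EV RIP lay below all other libraries. Cct4 read 255 and 257 CPM in EV input, 285 and 353 in FL input, 145 and 190.4 in EV RIP and 259 and 213 in FL RIP and was low in EV RIP by less. Cct6a read 473 and 442 CPM in EV input, 433 and 498 in FL input, 300.3 and 282 in EV RIP and 429 and 306 in FL RIP, with the ring's smallest value over EV RIP, 0.05 ± 0.26 (SE). Replicates of EV RIP were far apart in the remaining pair of genes. Cct2 read 244 and 245 CPM in EV input, 279 and 250.4 in FL input, 93.4 and 333 in EV RIP and 478 and 454 in FL RIP, and Tcp1 read 233 and 213 CPM in EV input, 295 and 283 in FL input, 64.6 and 266 in EV RIP and 218 and 259 in FL RIP.

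Psma7 (ENSMUSG00000027566, chromosome 2, 180036374 to 180042433, minus strand, mm10), an outer ring subunit, was the reverse of Cct7, and read 540.2 and 563 CPM in EV input, 465 and 480.3 in FL input, 1231 and 1255 in EV RIP and 484 and 573 in FL RIP. Its log2 fold change over EV RIP was -1.51 ± 0.23 (SE) (edgeR, adjusted p = 0.00662, 5.11e-15 to 0.259 over the alternatives), and it passed without each of the 8 libraries in turn. Psmd7 (ENSMUSG00000039067, chromosome 8, 107580381 to 107588464, minus strand, mm10), the partner of Psmd14 in the lid, read 848 and 783 CPM in EV input, 786 and 499 in FL input, 2065 and 1729 in EV RIP and 479.7 and 728 in FL RIP. Both EV RIP libraries stood above the other 6 in both genes. Psmd7 gave -1.93 ± 0.36 (SE) (edgeR, adjusted p = 0.00878, 5.80e-05 to 0.243 over the alternatives), and missed the threshold without FL RIP replicate 1 (adjusted p 0.0693). Psma3 was lower as well at -3.47 ± 0.91 (SE) (edgeR, adjusted p = 0.0288, 3.68e-06 to 0.190 over the alternatives). Without EV RIP replicate 1, which held 206 CPM, its log2 fold change was -1.68, and its call was lost without any 1 of the inputs (edgeR, adjusted p of 0.0642 to 0.0651), FL RIP replicate 1 (0.129) and FL RIP replicate 2 (0.190).

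Psma5 (ENSMUSG00000068749, chromosome 3, 108256926 to 108279974, plus strand, mm10), of the outer ring, read 90.2 and 93.9 CPM in EV input, 87.0 and 92.0 in FL input, 23.0 and 32.9 in EV RIP and 135 and 70.0 in FL RIP. EV RIP lay below all other libraries, and the log2 fold change over it was 1.59 ± 0.46 (SE) (edgeR, adjusted p = 0.0407, 0.00118 to 0.525 over the alternatives), although copies of its 3′ end make the level uncertain. The call was lost without any 1 of the inputs (edgeR, adjusted p of 0.0863 to 0.0880) and without FL RIP replicate 1 (0.236), and also with no filter (0.0792). Further members had almost no read in a single EV RIP library, among them Psma1, Psmb2, Psmb7, Psmd9 and the assembly chaperone Psmd5, which read 46.9 and 45.3 CPM in EV input, 51.9 and 57.2 in FL input, 0 and 63.1 in EV RIP and 70.6 and 38.9 in FL RIP. Their fold changes over EV RIP thus rest on single libraries, with SE of 1.37 to 1.63 on the log2 scale.

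**Figure D3:**
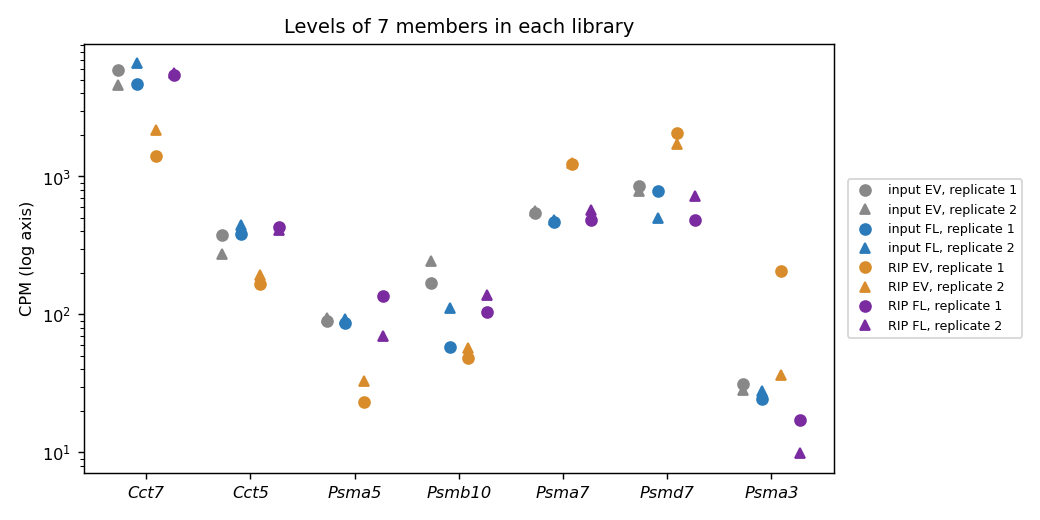
CPM (logarithmic axis) of 7 members in each of the 8 libraries, with circles for replicate 1 and triangles for replicate 2. EV RIP lies below the other libraries for Cct7, Cct5 and Psma5 and above them for Psma7, Psmd7 and Psma3.

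The number of calls over EV RIP rested on which libraries were in the fit. With the 4 RIP libraries alone edgeR called 0 members either way (0% of all genes tested). Unadjusted p under 0.05 covered 5 higher and 4 lower members (10.9% and 8.70%, against 24.0% and 5.31% of all genes tested). By limma voom 0 were called (0.0837%), with 1 and 1 at an unadjusted p under 0.05 (19.8% and 2.85% of all genes tested), while DESeq2 on 8 libraries called 6 higher (30.4%) and 7 lower (10.5%). With the replicate number as a block, 1 member was higher, Cct7 (22.7% of all genes tested), and the calls of Cct5, Psma5 and Psmb9 were lost (edgeR, adjusted p 0.0803, 0.0788 and 0.0720), while 3 were lower (3.96%). With no filter 6 members were higher (16.8% of all genes tested) and 3 lower (5.13%). By library size alone edgeR called 7 members higher (26.6% of all genes tested), with Cct3, Cct8 and Psmd3 added, and 3 lower (4.01%), while the median over all genes tested moved from 0.64 to 0.91. Higher members came to 2 without any 1 of the inputs (21.3% to 21.8% of all genes tested) or without FL RIP replicate 2 (20.3%), 0 without FL RIP replicate 1 (19.1%), 7 without EV RIP replicate 1 (41.5%) and 20 without EV RIP replicate 2 (58.1%). Lower members came to 8 without EV RIP replicate 1 (18.2% of all genes tested), 7 without EV RIP replicate 2 (16.2%) and 1 without FL RIP replicate 1 (1.26%). The rise in calls without an EV RIP library was thus not limited to the members.

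Inducible subunits take the place of constitutive catalytic subunits in immunoproteasomes: Psmb8 of Psmb5, Psmb9 of Psmb6 and Psmb10 of Psmb7. Psmb8 had 0 reads in all libraries except 1 read in FL RIP replicate 1, while Psmb5, the chymotrypsin-like subunit, read 64.0 and 42.4 CPM in EV input, 60.4 and 50.9 in FL input, 15.2 and 115 in EV RIP and 69.0 and 60.5 in FL RIP. Psmb9 (ENSMUSG00000096727, chromosome 17, 34181987 to 34187764, minus strand, mm10) read 3.85 and 2.18 CPM in EV input, 1.73 and 5.14 in FL input, 0 and 0 in EV RIP and 3.03 and 1.50 in FL RIP. It was far below Psmb6 in every library, and at 0 in both EV RIP libraries. In FL RIP it was at least 4.16-fold higher by library size alone, against 3 counts over both EV RIP libraries. That bound was 2.58 without EV RIP replicate 1 and 1.58 without EV RIP replicate 2. It pools 34 and 15 counts of FL RIP replicates 1 and 2 and was not recomputed without either. TMM factors, 1.18 and 1.14 in FL RIP and 0.94 and 0.98 in EV RIP, would lower it. With TMM, Psmb9 was called higher (edgeR, adjusted p = 0.0361, 0.0155 to 0.394 over the alternatives). The call was lost without either EV input (edgeR, adjusted p 0.0606 and 0.0610), EV RIP replicate 2 (0.0505) and FL RIP replicate 1 (0.0921). Psmb10 was the most abundant inducible form and lay above Psmb7 in all libraries but FL input replicate 1. Psmb11, the thymus form, had 0 reads in all 8 libraries, which allows up to 0.141 CPM of uniquely aligned reads over the 4 inputs. As 27.5% of the windows of its 3′ end had an exact copy elsewhere, its level may lie above that bound.

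The difference of the RIP over input change between FL and EV cells takes the input level into account. Psmb10 was higher and Psma7 lower in it, 1 and 1 of 46 members by edgeR on 8 libraries, where 19.2% and 2.1% of all genes tested were called, and the members' median was 0.13 against 0.64 over all genes tested. That median moved from 0.01 without EV input replicate 1 to 0.74 without EV RIP replicate 2, against 0.61 and 3.05 over all genes tested. In EV cells both RIP libraries of Psmb10 lay below both inputs, whereas in FL cells they overlapped, a difference of 2.20 ± 0.60 (SE) (edgeR, adjusted p = 0.0437, 0.00299 to 0.352 over the alternatives). It is made of -1.28 between the inputs, where FL input was low, and 0.92 between the RIP groups. The latter was not called by edgeR on 8 libraries (adjusted p = 0.162, 0.0377 to 0.687 over the alternatives, with 0.0377 without EV RIP replicate 2). Psma7 was above its inputs in EV RIP and near them in FL RIP, a difference of -1.30 ± 0.31 (SE) (edgeR, adjusted p = 0.0295, 6.75e-06 to 0.373 over the alternatives). The calls of Psmb10 and Psma7 were lost without EV input replicate 1 (edgeR, adjusted p 0.0963 and 0.0728), EV input replicate 2 (0.161 and 0.0865), FL input replicate 1 (0.131 and 0.0807), FL input replicate 2 (0.0704 and 0.0777), FL RIP replicate 1 (0.0828 and 0.159) and FL RIP replicate 2 (0.136 and 0.0811). Both were also lost by limma voom (0.352 and 0.373) and by edgeR with no filter (0.0802 and 0.175), and that of Psma7 by library size alone (0.0647) and with the replicate block (0.0528). Counts were 5 higher and 6 lower without EV RIP replicate 1 (35.9% and 11.8% of all genes tested), 13 and 3 without EV RIP replicate 2 (54.0% and 12.4%), and 0 and 0 without any other library, where 12.2% and 0.651% of all genes were called without EV input replicate 2 and 0% without each of the others.

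Of 46 further genes of these pathways 43 passed the filter, not Actg1 and Ngly1, and Paaf1 is not analysed here. Over EV RIP 12 were higher and 3 lower by edgeR on 8 libraries (24.8% and 5.46% of all genes tested), and 0 by edgeR on 4. Against FL input 2 were higher and 12 lower by edgeR on 4 libraries (8.44% and 8.46%), and 0 by edgeR on 8. Tubulin genes, whose products CCT folds, made up 5 of these 12, among them Tuba1b at -1.77 ± 0.29 (SE) (edgeR on 4 libraries, adjusted p = 0.00599). Actb, the actin gene tested, was not called there, at -0.17 ± 0.30 (SE) (edgeR on 4 libraries, adjusted p = 0.722). Pomp, the maturation factor of the core particle, read 1251 and 1563 CPM in EV input, 1175 and 1674 in FL input, 264 and 404 in EV RIP and 1257 and 1527 in FL RIP. It was low in EV RIP, with 1.79 ± 0.31 (SE) over EV RIP (edgeR, adjusted p = 0.00714).

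Promoters were searched for the core of the antioxidant response element, which proteasome genes are known to share. The motif TGACNNNGC was looked for on both strands, from 250 bases before to 50 after each start, in the RefSeq promoter table (GRCm38.p6), which holds 40 of the 48 members. It stood in 8 of their 44 promoters (18.2%), against 12.4% of all 32851 promoters and 14.3% of the promoters of genes past the filter. The members with a match were Psmb5, Psmb6, Psmc6, Psmd9, Psmd12, Tcp1, Cct2 and Cct6a, and a match describes letters only. To show the motif in its context, windows of 29 bases are given for a pair of catalytic subunits, at chr14:54618024-54618052 (minus strand) and chr11:70525338-70525366 (plus strand), and a pair of CCT subunits, at chr10:117063522-117063550 (minus strand) and chr17:12916290-12916318 (plus strand), with the motif in capitals.
Psmb5: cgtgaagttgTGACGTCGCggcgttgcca
Psmb6: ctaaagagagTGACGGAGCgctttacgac
Cct2: tgggaccgggTGACCGAGCtctccgcgcg
Tcp1: tgtctctagtTGACCCAGCgtcccgcagc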

How the data were processed

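The deposited values are raw counts per gene, which the authors made from QuantSeq 3′ reads mapped to mm10 with STAR 2.5.3a and counted with HTSeq 0.11.2. All 8 columns were used. Uniquely aligned reads on no gene made up 3.30% to 45.8% of a library and reads without a unique position 27.0% to 52.1%. Gene IDs were matched to GENCODE M21 for 52403 of 52550 genes. Genes with at least 1 CPM in all 4 inputs were fitted with edgeR 4.0.16 in R 4.3.3 (TMM, quasi-likelihood, Benjamini-Hochberg over all genes tested), with 4 groups and 4 comparisons. Alternatives were library size alone, DESeq2 1.42.0, limma 3.58.1 voom with group weights, the 4 libraries compared, filterByExpr, no filter, the replicate number as a block, and leaving out each library, where the lone library of a group is assumed to vary like the others. Leaving out libraries and library size alone in the fit of 4 libraries against input were added after seeing the data. Copies of transcript ends were searched with BLAST 2.17.0. The floor for genes at 0 was 3 counts, and it covers counting error only. Values in every library are given for the highest and lowest member by input level and by log2 fold change against input in each group of subunits, the catalytic pairs, all CCT subunits and members past the threshold; Psmd5, Psmd13 and further genes were chosen after their values were seen. The members and lists were chosen with earlier results of these data known.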

Additional observations from a re-analysis of the deposited data

Results flagged for a closer look

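The RIP over input change of 2 members differed between FL and EV cells by a test of the difference itself (edgeR on 8 libraries). These were 1 higher and 1 lower of 46 members, where 19.2% and 2.1% of all genes tested were called. Calls of this kind were thus not particular to the members. For Psma7 the difference was -1.30 on the log2 scale (adjusted p = 0.0295, 6.75e-06 to 0.373 over the alternatives), with 540.2 and 563 CPM in EV input, 465 and 480.3 in FL input, 1231 and 1255 in EV RIP and 484 and 573 in FL RIP. For Psmb10 it was 2.20 (edgeR, adjusted p = 0.0437, 0.00299 to 0.352 over the alternatives), with 169 and 244 CPM in EV input, 57.6 and 111 in FL input, 47.9 and 57.4 in EV RIP and 104 and 137 in FL RIP. It is made of -1.28 between the inputs and 0.92 between the RIP groups. The latter was not called (edgeR on 8 libraries, adjusted p = 0.162, 0.0377 to 0.687 over the alternatives, with 0.0377 without EV RIP replicate 2). Both calls were lost without any 1 of the 4 inputs or of the 2 FL RIP libraries (edgeR, adjusted p 0.0728 to 0.159 for Psma7 and 0.0704 to 0.161 for Psmb10), by limma voom (0.373 and 0.352) and by edgeR with no filter (0.175 and 0.0802). That of Psma7 was also lost by library size alone (0.0647) and with the replicate block (0.0528). The part of the spread between the EV RIP libraries in either difference was not tested.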

How the results depend on the processing

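For the 9 calls of members by edgeR on 8 libraries (7 over EV RIP and 2 for the difference), 133 values under the alternatives all kept their direction, 72 past the threshold and 61 not. For the 7 members lower against FL input on 4 libraries, 140 values all kept theirs, 39 past the threshold and 101 not. Both sets of members were picked by calls in the same counts that the alternatives refit, so the kept directions are no separate support. Leaving out an input hardly moves a log2 fold change over EV RIP, where the members' median stayed at 0.20. Over EV RIP, members higher came to 7 by library size alone (26.6% of all genes tested) and 1 with the replicate block (22.7%). They came to 0 by limma voom (0%) and by edgeR on 4 libraries (0%). Members lower came to 7 by DESeq2 (10.5%) and 0 by limma voom (0.0837%) and edgeR on 4 libraries (0%). The members' median was 0.49 by library size alone and 0.39 with no filter (0.91 and 1.59 over all genes tested). Against FL input, members lower came to 6 by DESeq2 (4% of all genes tested), 11 by limma voom (9.65%) and 7 by edgeR on 4 libraries (8.46%). The members' median was -0.10 by library size alone. Within the fit of 4 libraries, library size alone gave 1 higher and 2 lower (18% and 5.27% of all genes tested). For the difference between cell lines, members higher came to 2 by DESeq2 (24.5% of all genes tested) and 0 by limma voom (0%); members lower came to 3 by DESeq2 (5.65%) and 0 by library size alone (1.54%), limma voom (0%), no filter (1.66%) and the replicate block (1.25%); the median was 0.43 by library size alone and 0.34 with no filter. Leaving out each library in turn gave, over EV RIP, 0 to 20 members higher, 1 to 8 lower and medians of 0.089 to 0.78; against FL input 0 to 8 lower and medians of -0.41 to -0.24 on 8 libraries, and 0 to 1 higher and 2 to 10 lower on 4 libraries; between the inputs medians of -0.051 to 0.24; and for the difference between cell lines 0 to 13 higher, 0 to 6 lower and medians of 0.011 to 0.74. Summed CPM of members scaled with TMM were 23335 in EV input, 25089 in FL input, 15914.5 in EV RIP and 18623 in FL RIP. The causes were not tested. Depth limits EV RIP replicate 1 most, where 3 counts stand for 1.47 CPM, against at most 0.936 CPM in the other libraries.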

Other observations

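The prefix also took in 4 genes that are not protein-coding and were left out: Psmb5-ps, Psmb6-ps and Psmb7-ps2 had 0 reads in every library, and Psmb6-ps2 had 1 read in EV input replicate 1, 1 in FL RIP replicate 1, 2 in FL RIP replicate 2 and 0 in the others.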
